A study of Rattus norvegicus with 9 samples.

Results

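The 10 genes described here are markers of mesothelium and of simple, single-layered epithelia: Msln, Upk1b, Upk3b, Wt1, Lrrn4, Krt7, Krt8, Krt18, Krt19 and Cdh1. They were chosen by name, as a possible sign of surrounding membrane in dissected ganglia, and all 10 were found by symbol among the 20194 genes measured. RNA-Seq was performed on lumbar dorsal root ganglia (DRG) of the operated side, which hold the cell bodies of sensory neurons, of male adult Sprague Dawley rats. The sham group had sham surgery, and the SNI group had spared nerve injury, in which the tibial and common peroneal branches of the sciatic nerve are cut and the sural branch is left intact. The SNI + G15 group had the same injury and was given G15, an antagonist of the G protein-coupled oestrogen receptor GPER, through an intrathecal catheter placed on day 5 after SNI, for 24 h. The titles of the sham and SNI samples call them controls for G15, but which vehicle they received is not given. The labels give the drug solvent as 2% DMSO, and catheters were tested with lidocaine. Each group held 3 libraries, named below by group and replicate number, and the labels do not tie a library to an animal, so p-values measure only the spread between these samples.

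Mesothelium is the flat cell layer that lines body cavities and covers organs. It is known for combining epithelial features, such as keratins and uroplakin-type proteins, with the transcription factor Wt1. The ganglion itself has no mesothelium. Its coverings are a fibrous capsule continuous with the dura, a perineurium-like layer, and, near the root, the arachnoid, whose barrier cells are joined by tight junctions and desmosomes. Keratins form filaments only as pairs of a type I member (Krt18, Krt19) and a type II member (Krt7, Krt8), and Cdh1 encodes E-cadherin, the adhesion protein of epithelial junctions, which in the nervous system is also known in Schwann cells and in some sensory neurons.

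The 10 markers did not behave as 1 group in these ganglia. Msln and Upk1b fell in the SNI group and rose above sham in the SNI + G15 group, Krt19 rose in SNI and fell back with G15, Krt7 rose in both comparisons, and Cdh1 was abundant in every library and fell slightly. Upk3b, Wt1, Lrrn4 and Krt18, of which the first 3 belong to the mesothelial genes of the list, stayed at or near 0 throughout, although Wt1 had more reads in SNI than in sham. In edgeR's quasi-likelihood test over all 20091 genes with at least 1 count, 6 of the 10 markers passed an adjusted p of 0.05 between SNI and sham, where 33.4% of all genes passed. Of these 3 were higher and 3 lower, against 17.1% and 16.4% of all genes. The contrast of SNI + G15 with SNI called 4 of the 10, against 9.45% of all genes, 3 of them higher (5.03% of all) and 1 lower (4.42%). That of SNI + G15 with sham also called 4 of the 10, against 31.9%, 3 of them higher (15.9%) and 1 lower (16.0%). The 3 libraries of one group lay apart from the 3 of the other for 6, 7 and 6 of the 10 markers in these comparisons, and for 44.6%, 31.5% and 44.1% of all genes with a count. The median log2 fold change of the 10 was 0.33, 0.16 and 1.18 in the 3 comparisons, and over all genes it lay between 0.0 and 0.0064. These medians include Upk3b, Wt1 and Krt18, whose folds rest on few reads. For the 5 markers that reached 1 FPKM in some library, the medians were -0.02, 0.30 and 0.26. In bulk tissue, fewer cells of a type and less RNA per cell cannot be told apart.

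**Figure D1:**
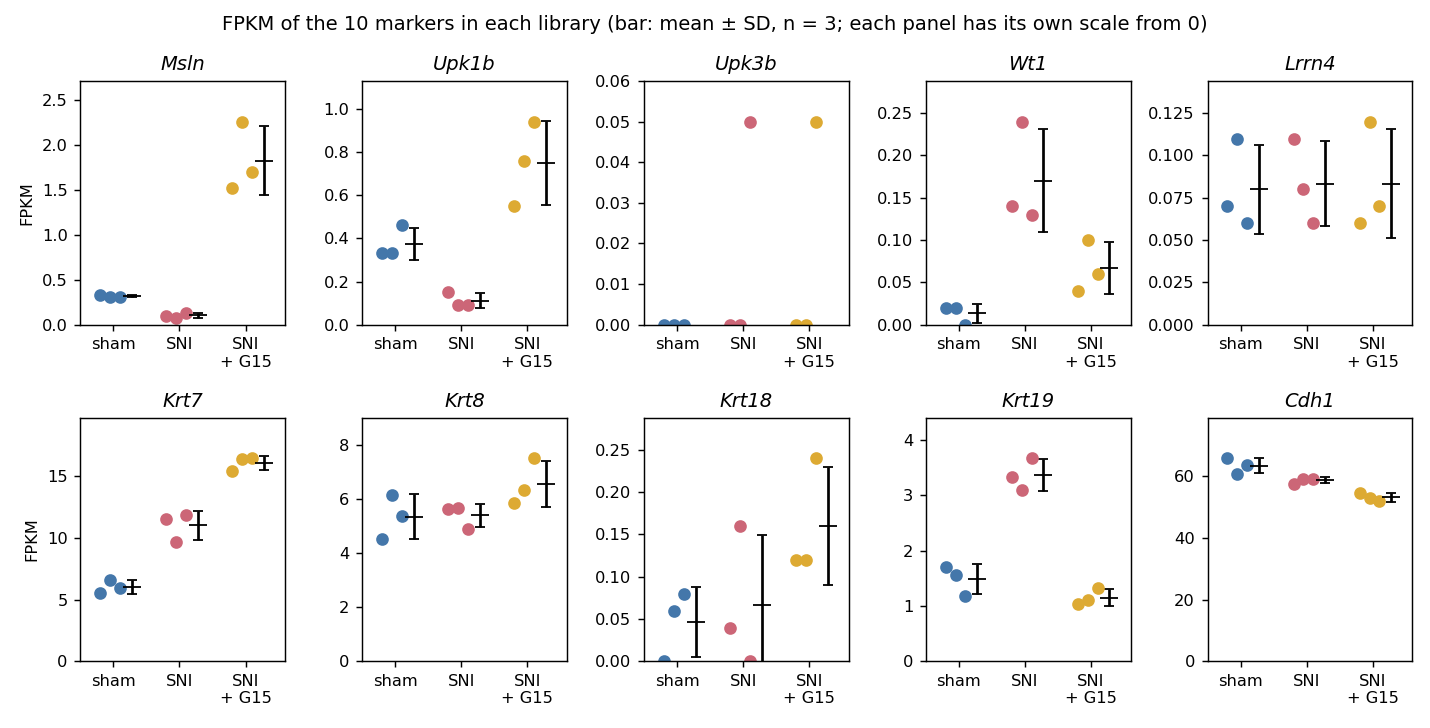
FPKM of each marker (vertical axes, each panel on its own scale starting at 0) in the 3 sham, 3 SNI and 3 SNI + G15 libraries, with 1 point a library and bars for the mean ± SD (n = 3; no bar for Upk3b). Msln lies between 0.08 and 0.13 in SNI and between 1.52 and 2.26 in SNI + G15, Krt19 between 3.10 and 3.67 in SNI and no higher than 1.70 elsewhere, and Cdh1 above 51 in all 9 libraries.

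Levels were compared as FPKM, fragment numbers scaled to transcript length and library size. Cdh1 averaged 58.3 FPKM over the 9 libraries, more than 92.1% of all genes in the table. Krt7 averaged 11.1, Krt8 5.78 and Krt19 2.00 FPKM, while Msln averaged 0.749 and Upk1b 0.411. Krt18, Wt1, Lrrn4 and Upk3b averaged 0.0911, 0.0833, 0.0822 and 0.0111 FPKM. In the sham group the order of the means was Cdh1, Krt7, Krt8, Krt19, Upk1b, Msln, Lrrn4, Krt18, Wt1 and Upk3b. The library ranges of Krt7 and Krt8 overlapped there, as did those of Upk1b and Msln, and those of each neighbouring pair from Lrrn4 down. In the SNI + G15 group Msln stood in position 4, above Krt19, and its range overlapped neither that of Krt8 above it nor that of Krt19 below it. Only 5 of the 10 markers reached 1 FPKM in any library, and Msln reached it only in the SNI + G15 group, so its place among the 14305 genes past that filter rests on the group where it is high.

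Msln encodes mesothelin, a GPI-anchored surface protein of mesothelial cells. Its FPKM was 0.33, 0.31 and 0.31 in sham libraries 1 to 3, then 0.10, 0.08 and 0.13 in SNI, and 1.52, 2.26 and 1.70 in SNI + G15. No 2 groups overlapped, and the SNI + G15 libraries stood highest. These values rest on few reads, between 12 and 13 estimated reads per sham library, 3 to 5 per SNI library and 59 to 87 per SNI + G15 library. Between SNI and sham the log2 fold change was -1.62 (SE 0.44), with an adjusted p of 0.0104 in edgeR. DESeq2 gave an adjusted p of 0.0514 for this fall, and limma on log2(FPKM + 1) gave 0.0507. Between SNI + G15 and SNI, Msln rose by 4.12 on the log2 scale (SE 0.31, edgeR adjusted p = 8.68e-05, and 4.67e-05 in the fit over all genes with at least 1 count), and without SNI + G15 replicate 3 by 4.16. Against sham it rose by 2.47 (SE 0.24, edgeR adjusted p = 2.68e-05, and 2.25e-05 in that fit). The summed reads of SNI + G15 were 17.8 times those of SNI, with an exact 95% interval of 9.95 to 34.9 for counting error only.

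Upk1b, a tetraspanin first known from the urothelial plaque, followed the same course at a lower level. The sham libraries held 0.33, 0.33 and 0.46 FPKM, the SNI libraries 0.15, 0.09 and 0.09, and the SNI + G15 libraries 0.55, 0.76 and 0.94. The 3 groups did not overlap, with SNI lowest and SNI + G15 highest. The log2 fold change was -1.75 between SNI and sham (SE 0.43, edgeR adjusted p = 0.00775), from 37 summed reads in sham and 11 in SNI. DESeq2 gave an adjusted p of 0.0614 for that comparison. With G15 against SNI it was 2.76 (SE 0.37, edgeR adjusted p = 0.00187). The excess of SNI + G15 over sham, 0.99 (SE 0.30, edgeR adjusted p = 0.0275), was the least firm of the 3. Its adjusted p was 0.116 in DESeq2 and between 0.0714 and 0.0924 in edgeR without sham replicate 1, without sham replicate 2, and without replicate 2 or 3 of the SNI + G15 group. Over the 9 libraries the log2 CPM of Upk1b and Msln correlated at r = 0.931, and at 0.139 once group means were subtracted.

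The promoter of Upk1b is shown because its course matched that of Msln, for which the RefSeq promoter table used has no entry. The 250 bases before the RefSeq start of Upk1b (GRCr8, chr11:75459131-75459380, + strand) hold 4 CpG, against a median of 5 over 33469 promoters. Capitals mark a CCAAT box, at positions -78 to -74 counted from the start, which occurs on either strand of 34.0% of all promoters of this length.
Upk1b: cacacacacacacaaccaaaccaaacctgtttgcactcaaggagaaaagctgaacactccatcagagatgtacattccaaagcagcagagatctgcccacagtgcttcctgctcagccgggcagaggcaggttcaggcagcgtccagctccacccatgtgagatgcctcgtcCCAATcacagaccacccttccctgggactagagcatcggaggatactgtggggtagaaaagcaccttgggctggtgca

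The transcript tables divided the reads of both genes unevenly, although the gene totals were close within each group. For Msln, which has 2 transcripts, 1 transcript held at least 99% of the reads in 8 of 9 libraries, but the leading transcript was the curated RefSeq one in 4 libraries and the predicted one in 5. Sham replicates 1 and 2 had all their reads on the curated transcript and sham replicate 3 on the predicted one. Upk1b, with 3 transcripts, showed the same in 8 of 9 libraries, and its reads moved to another transcript in sham replicate 1 and SNI + G15 replicate 3. The split thus differed between libraries of 1 group, and no comparison of transcripts was made. Krt8, Krt18, Krt19, Cdh1 and Lrrn4 have 1 transcript each in the table, and Krt7 had the same leading transcript in all 9 libraries.

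**Figure D2:**
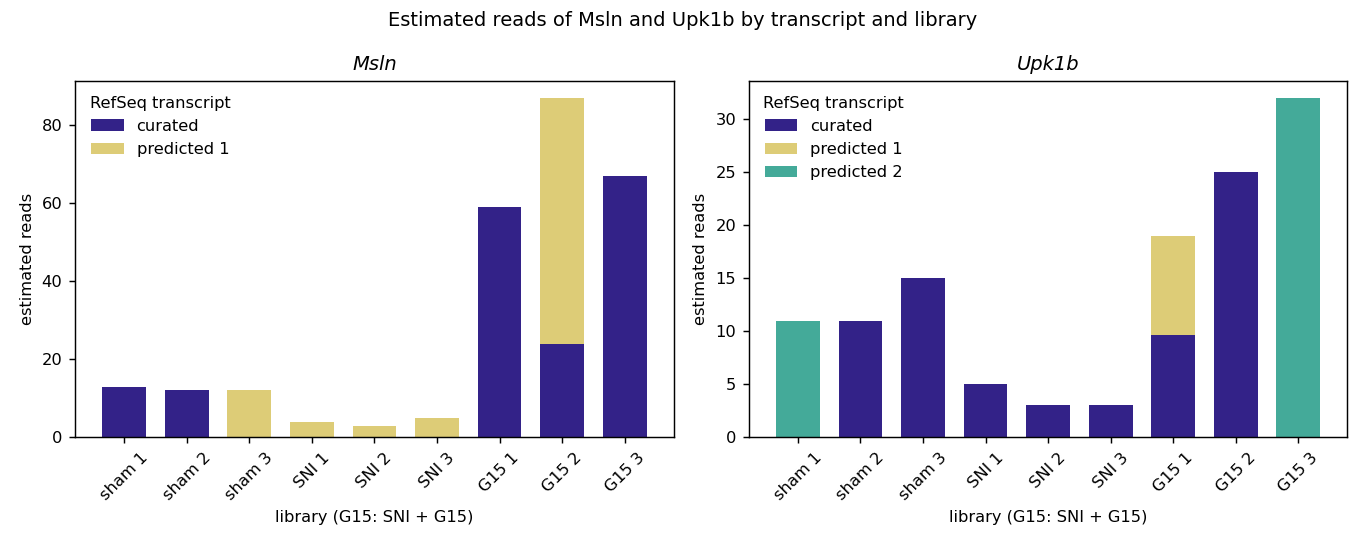
Estimated reads (vertical axes) of Msln and Upk1b in each of the 9 libraries (horizontal axes), stacked by RefSeq transcript. Gene totals are alike within groups (Msln 12 to 13 in sham, 3 to 5 in SNI, 59 to 87 in SNI + G15), while the transcript that carries the reads changes between replicates.

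Of the other 3 mesothelial markers, Upk3b and Lrrn4 gave little signal. Upk3b, an uroplakin of mesothelium and urothelium, had no read in 7 of 9 libraries and 1 read in each of SNI replicate 3 and SNI + G15 replicate 3, and a count of 0 allows up to 3 reads, between 0.1599 and 0.1623 CPM. Lrrn4, a leucine-rich repeat membrane protein, lay between 0.06 and 0.11 FPKM in sham, 0.06 and 0.11 in SNI and 0.06 and 0.12 in SNI + G15. Its groups overlapped, its counts were not whole in any library, and its fold changes were all under 0.02 on the log2 scale with an edgeR adjusted p of 1. The ratio of its summed reads was 1.08 for SNI over sham, with an interval of 0.609 to 1.91, so changes within those bounds were not detectable at this depth.

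Wt1, the zinc-finger transcription factor of mesothelium and kidney, differed from Msln and Upk1b in direction. It had 1, 1 and 0 reads in the sham libraries, 8, 12 and 8 in SNI, and 2, 5 and 3 in SNI + G15. Every SNI library lay above every library of the other groups. The summed reads of SNI were 14.0 times those of sham, with a counting interval of 3.53 to 121, and edgeR gave an adjusted p of 0.00208. For SNI + G15 over SNI the ratio was 0.357 (interval 0.155 to 0.758), with an edgeR adjusted p of 0.0865. Msln and Wt1, both textbook mesothelial markers, therefore stood in opposite order in the SNI and sham groups.

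Among the keratins, Krt7 showed the steadiest change. This type II keratin of ductal epithelia and mesothelium had 5.54, 6.62 and 5.99 FPKM in sham, 11.56, 9.70 and 11.88 in SNI and 15.43, 16.39 and 16.47 in SNI + G15. The 3 groups formed 3 separate steps. Krt7 rose by 0.84 on the log2 scale between SNI and sham (SE 0.095, edgeR adjusted p = 4.19e-05) and by a further 0.56 between SNI + G15 and SNI (SE 0.081, edgeR adjusted p = 0.00284). From sham to SNI + G15 the rise was 1.37 (SE 0.080, edgeR adjusted p = 8.96e-07), and it passed the threshold in all 16 alternative settings of each comparison.

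Krt19, a type I keratin, was high in the SNI group alone. It had 1.70, 1.57 and 1.18 FPKM in sham, 3.34, 3.10 and 3.67 in SNI, and 1.03, 1.11 and 1.32 in SNI + G15. The SNI libraries stood apart from both other groups, which overlapped each other. The rise between SNI and sham was 1.15 on the log2 scale (SE 0.18, edgeR adjusted p = 0.000394). With G15, Krt19 fell by 1.53 against SNI (SE 0.17, edgeR adjusted p = 0.000872), and SNI + G15 against sham gave -0.40 (SE 0.23, edgeR adjusted p = 0.198). The erythroid list, which covers haemoglobin and red cell genes, was likewise highest in SNI. All 6 of its tested members were higher in SNI than in sham, where 45.7% of genes past the 1 FPKM filter were called. All 6 were lower with G15 than without it, where 15.2% were called. Summed FPKM of the list was 97.6 to 101 for sham, 327 to 334 for SNI and 194 to 228 for SNI + G15. Unlike Krt19, 5 of the 6 were also higher in SNI + G15 than in sham, where 43.2% were called. Its part in the Krt19 values was not tested.

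Krt8, the usual type II partner of Krt18, passed in no comparison. It had 4.53, 6.17 and 5.37 FPKM in sham, 5.64, 5.66 and 4.91 in SNI, and 5.85, 6.35 and 7.51 in SNI + G15. The SNI + G15 libraries all lay above the SNI libraries, and the log2 fold change was 0.30 (SE 0.11, edgeR adjusted p = 0.108). Krt18 had between 0 and 2 reads per sham library, 0 to 4 per SNI library and 3 to 6 per SNI + G15 library. The ratio of its summed reads was 4.0 for SNI + G15 over sham, with an interval of 1.08 to 22.1, and its edgeR adjusted p was 0.133. Krt8 therefore stood far above its partner in every library.

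The promoters of Krt8 and Krt18 are shown because the pair, which lies side by side on rat chromosome 7, was so unequal in these ganglia. In GRCr8 the windows are chr7:135010340-135010589 for Krt8 (- strand) and chr7:135035918-135036167 for Krt18 (+ strand), 25328 bases apart. The genes are read away from each other. Both strands were searched for the TATA box (TATAAA), the GC box (GGGCGG) and the CCAAT box, and capitals mark the matches. Krt8 holds the letters TATAAA at positions -104 to -99 and an overlapping match on the other strand. Krt18 holds a GC box at -84 to -79. Whether the Krt8 match works as a TATA box that far from the start was not tested. Of all 33469 promoters, 12.9% hold a TATA box and 30.5% a GC box by these letters. The Krt18 window has 15 CpG and the Krt8 window 8.
Krt8: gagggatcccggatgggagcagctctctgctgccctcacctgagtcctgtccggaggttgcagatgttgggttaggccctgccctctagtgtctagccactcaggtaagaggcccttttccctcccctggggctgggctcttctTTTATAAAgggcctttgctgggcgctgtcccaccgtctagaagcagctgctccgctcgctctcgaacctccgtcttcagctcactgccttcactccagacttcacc
Krt18: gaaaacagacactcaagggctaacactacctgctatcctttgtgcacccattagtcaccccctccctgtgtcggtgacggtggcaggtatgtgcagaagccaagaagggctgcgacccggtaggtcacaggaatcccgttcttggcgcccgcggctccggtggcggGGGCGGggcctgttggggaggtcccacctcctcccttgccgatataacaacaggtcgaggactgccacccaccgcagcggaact

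Since keratins pair across types, the levels were also summed by type. Krt7 and Krt8 together had 10.1 to 12.8 FPKM for sham, 15.4 to 17.2 for SNI and 21.3 to 24.0 for SNI + G15. Krt18 and Krt19 together had 1.26 to 1.70 FPKM for sham, 3.26 to 3.67 for SNI and 1.15 to 1.56 for SNI + G15. The type II sum was thus 5.92 to 9.02 times the type I sum in sham, 4.57 to 5.09 times in SNI and 15.4 to 18.5 times that sum in SNI + G15. Over all keratins of the table, chosen after the values were seen, this imbalance was smaller. Krt222, to which no type was assigned, averaged 7.39, 5.64 and 4.54 FPKM in sham, SNI and SNI + G15 and is in neither sum. The 20 type II genes summed to 0.94 to 1.25 times the 25 type I genes in sham, 1.5 to 1.65 times in SNI and 2.24 to 2.64 times in SNI + G15. Krt28, a type I keratin of the hair root sheath, had a mean of 6.80 FPKM in sham and 3.33 in SNI, and Krt7 made up 37.3% to 38.6% of all type II FPKM in sham libraries and 60.6% to 63.2% in SNI + G15 libraries.

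**Figure D3:**
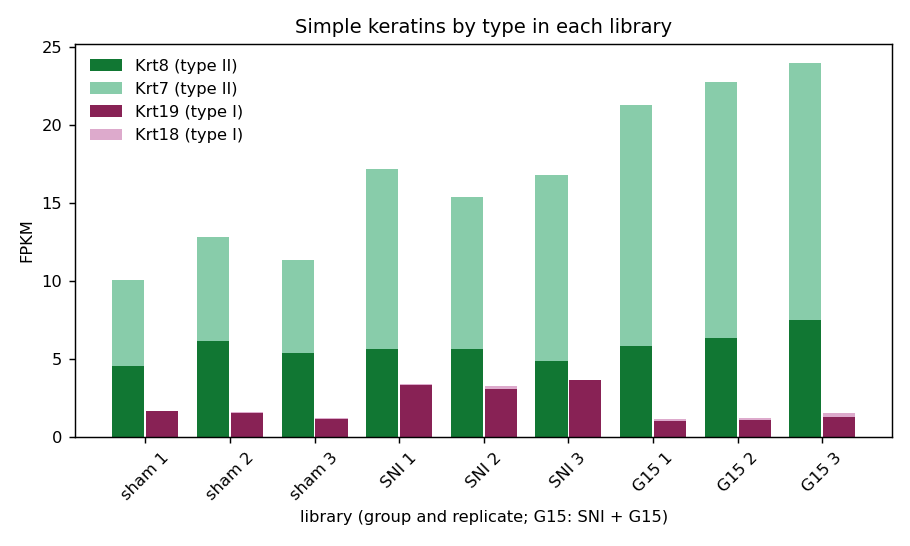
Summed FPKM of the 4 simple keratins in each library, with 1 stacked bar for type II (Krt8, Krt7) and 1 for type I (Krt19, Krt18). The type II bars reach 10.1 to 12.8 in sham and 21.3 to 24.0 in SNI + G15, while the type I bars are highest in SNI, at 3.26 to 3.67.

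Cdh1 was the most abundant marker, and its changes were small. It had 65.60, 60.58 and 63.61 FPKM in sham, 57.45, 59.02 and 59.08 in SNI, and 54.54, 52.80 and 51.78 in SNI + G15. The groups did not overlap and descended in that order. The log2 fold change was -0.14 between SNI and sham (SE 0.038, edgeR adjusted p = 0.0106) and -0.29 between SNI + G15 and sham (SE 0.049, edgeR adjusted p = 0.000876). Between SNI + G15 and SNI it was -0.13 (SE 0.037, edgeR adjusted p = 0.0483 over the genes past the FPKM filter), and over all genes with at least 1 count the adjusted p was 0.0631. With the tested genes split by length into 4 equal bins, Cdh1 fell in the longest, whose median log2 fold change in that comparison was -0.097, against 0.14 for the shortest, and the part of transcript length in the Cdh1 values was not tested. Of 9 other cadherins and catenins, 2 were higher and 1 was lower in SNI than in sham, where 45.7% of genes past the filter were called. The alpha-catenin gene (Ctnna1) was at 0.25 and Cdh11 at -0.32 there. Cdh6 and Cdh11 were lower with G15 than without it, at -0.53 and -0.17, where 15.2% were called.

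**Figure D4:**
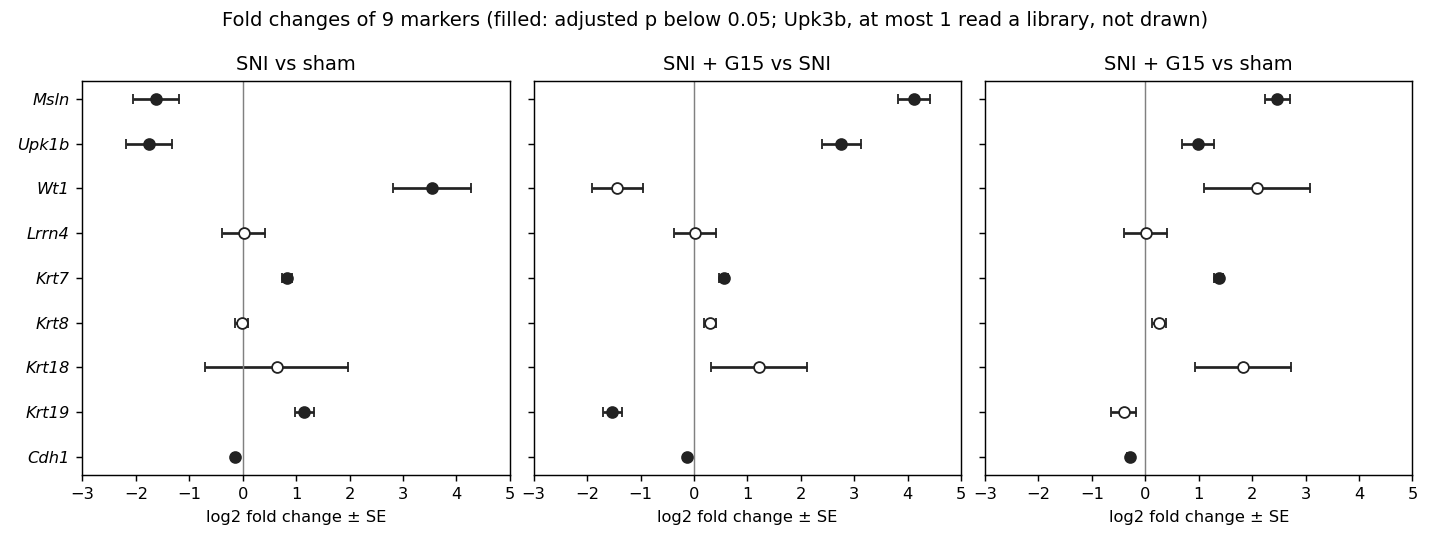
Log2 fold change ± SE (horizontal axes) of 9 markers in the 3 comparisons, from edgeR, with filled points for an adjusted p below 0.05. Msln is at -1.62 and 4.12 in the first 2 panels, Krt19 at 1.15 and -1.53, and Cdh1 between -0.29 and -0.13 in all 3.

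The mesothelial label was checked against 12 other mesothelial genes. Muc16, which encodes CA125, and the lectin Itln1 were listed at 0 in every sham library and averaged at most 0.0167 FPKM elsewhere, and Bnc1 had a mean of 0.37, 0.21 and 0.23 FPKM in sham, SNI and SNI + G15. Of the 7 genes past the filter, 3 were higher and 2 were lower in SNI than in sham, where 45.7% of genes past the filter were called. Only Prg4, which encodes the lubricant lubricin of joints and serous surfaces, was called between SNI + G15 and SNI, at 0.83 (background 15.2%). Slpi, a protease inhibitor, rose by 3.44 between SNI and sham, Pdpn (podoplanin) rose by 0.47, and Calb2 (calretinin), also a marker of some sensory neurons, fell by 0.80. While Upk3b, Muc16, Itln1, Lrrn4, Wt1, Krt18 and Gata6 were at or near 0, some other mesothelial genes were not. Gata6 averaged 0.04, 0.0267 and 0.0367 FPKM in sham, SNI and SNI + G15, and Tbx18 0.68, 0.737 and 0.733. Nkain4 averaged 11.2, 9.48 and 10.2 FPKM in sham, SNI and SNI + G15, and Pdpn 45.4, 64.3 and 66.3. The part of mesothelium in the values of the 10 genes was not tested, and they are named here by gene.

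Arachnoid barrier genes stood in the same order as Msln and Upk1b in the SNI and sham groups. Of the 13 measured, 11 were lower in SNI than in sham and none was higher, where 22.4% of genes past the filter were lower. Between SNI + G15 and SNI, 8 of 13 were higher and none was lower, where 7.98% of genes were higher. The 2 comparisons share the SNI libraries, so their opposite signs are not independent. The median log2 fold changes were -0.59 and 0.50, against 0.0010 and 0.0063 over all genes tested, and over 16 alternative settings the counts lay between 10 and 11 and between 7 and 8. The transporters Slc47a1 and Slc6a20 changed by -2.42 and -1.54 between SNI and sham and by 1.15 and 0.83 between SNI + G15 and SNI, and the tight junction gene Cldn11 by -1.13 and 0.50. Ptgds, the prostaglandin D synthase of the leptomeninges, averaged 1033 FPKM in sham, 202 in SNI and 215 in SNI + G15. It fell by 2.38 between SNI and sham, and its value of 0.10 between SNI + G15 and SNI did not pass (edgeR adjusted p = 0.14). Without Ptgds, the 12 other genes summed to 96.0 to 98.8 FPKM for sham, 64.4 to 67.1 for SNI and 76.4 to 81.6 for SNI + G15. Between SNI + G15 and sham, 9 of 13 were called lower (7 to 9 over the alternatives), where 21.9% of all genes were lower and 43.2% were called in either direction. Abcg2 and Foxc1 were called higher there, at 0.24 and 0.25, but not under every alternative (0 to 2 called).

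**Figure D5:**
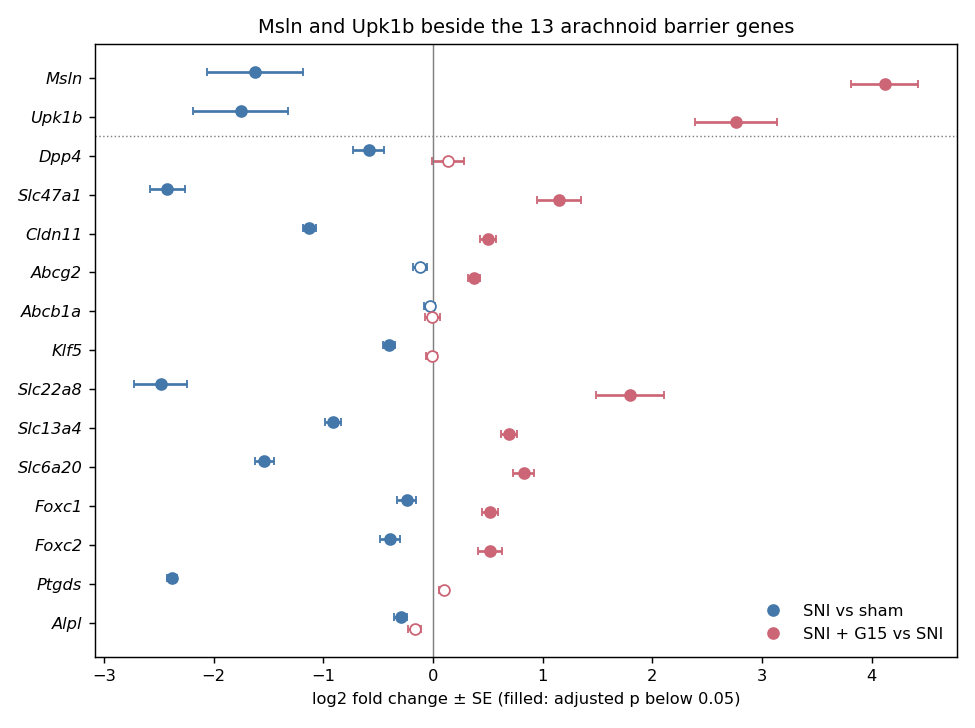
Log2 fold change ± SE (horizontal axis) of Msln, Upk1b and the 13 arachnoid barrier genes, for SNI against sham and for SNI + G15 against SNI, which share the SNI libraries. Filled points have an edgeR adjusted p below 0.05, and 11 of the 13 lie below 0 and filled in the first comparison and 8 of 13 above 0 and filled in the second.

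Fibroblast markers also rose with Msln in the SNI + G15 group. Of 10 tested, 9 were higher with G15 than without it (7.98% of all genes were), at a median of 0.48 on the log2 scale. In SNI against sham, 5 were lower and 2 higher, where 45.7% of genes past the filter were called. The 2 higher ones were not called by DESeq2 or limma. The matrix genes Fbln1, Lum and Dcn rose by 1.05, 0.80 and 0.53 between SNI + G15 and SNI. Summed over the list, levels were 659 to 692 FPKM for sham, 628 to 661 for SNI and 904 to 962 for SNI + G15, and without SNI + G15 replicate 3 the count was again 9. The gene most like Msln over the 9 libraries was Col3a1, a fibrillar collagen gene (r = 0.987 of log2 CPM), and Aebp1, Igfbp7 and Fbln1 were among the 8 nearest, at 0.981, 0.971 and 0.971. So were Bscl2, Lzts2, Inka2 and Cdh15, at 0.98, 0.976, 0.974 and 0.974, which are not on the fibroblast list. Once group means were subtracted, Slc6a8 and Rcsd1 stood nearest, at 0.965 and 0.954, and none of the earlier 8 was among the 8 nearest. These correlations span 3 groups of 3 libraries that share treatment and are descriptions only. Endothelial and mural genes had summed levels of 81.3 to 86.5 FPKM for sham, 88.2 to 93.4 for SNI and 115 to 126 for SNI + G15. With G15 against SNI, 3 of 8 were higher and 1 lower, where 15.2% of genes past the filter were called. Cldn5, Rgs5 and Acta2 rose by 0.64, 0.50 and 0.51 and Kdr fell by 0.26, so the list did not move as 1 group. The part of fibroblast, vascular or arachnoid tissue in the Msln and Upk1b values was not tested.

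Markers of other tissue that could adhere to a dissected ganglion were also measured. Of 10 skeletal muscle genes, 4 passed the filter and edgeR called none in any comparison, and the summed level was 11.1 to 13.9 FPKM over all libraries. Adipoq, the defining adipocyte gene, averaged 0.0367 FPKM in each group. The 7 adipocyte genes summed to 4.42 to 5.94 FPKM for sham, 8.53 to 9.83 for SNI and 16.0 to 16.7 for SNI + G15. Of the 3 past the filter, Cidec, a lipid droplet gene, rose by 3.20 between SNI and sham, and Cfd, also made by other cells, rose by 0.61 there and by 1.15 between SNI + G15 and SNI. Perineurial genes summed to 141 to 173 FPKM over all libraries. Most of that sum came from Itgb4, with means of 87.1, 93.1 and 105 FPKM in sham, SNI and SNI + G15, and Slc2a1, with 38.6, 38.8 and 41.9. Of 5 tested, 1 was higher and 2 were lower in SNI than in sham, where 45.7% of genes past the filter were called. Cldn1 was at -0.24 and Tjp1 at 0.44 there. Only Itgb4 was called between SNI + G15 and SNI, at 0.18 (background 15.2%).

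Other epithelial genes did not move as 1 group either. Of 18, 8 passed the filter, and 3 were higher and 3 lower in SNI than in sham, where 45.7% of genes past the filter were called. With G15 against SNI, 3 were higher and 1 lower, where 15.2% were called. In SNI + G15 against sham, 4 were higher and 2 lower, where 43.2% were called. Cldn4, a tight junction claudin, averaged 0.14 FPKM in sham, 9.57 in SNI and 12.7 in SNI + G15, a rise of 6.03 on the log2 scale and a further 0.42, so it stepped up as Krt7 did. Dsp, which encodes the desmosomal protein desmoplakin, was lowest in SNI, as Msln was, but returned to the sham level with G15, with a mean of 1.87, 0.747 and 1.95 FPKM in sham, SNI and SNI + G15. It fell by 1.35 and rose by 1.37, both with an edgeR adjusted p below that of Msln, and gave -0.001 between SNI + G15 and sham (edgeR adjusted p = 0.995). Cdh3, the P-cadherin gene, fell by 0.72 and by 0.30, in the direction of Cdh1. The epithelial regulators Esrp1, Esrp2, Grhl2 and Elf3 averaged under 0.3 FPKM in each group, and Ovol1 averaged 0.793, 0.737 and 0.88 FPKM and passed in no comparison.

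The relatives of the markers were likewise low or unlike them. The 4 other uroplakin genes never reached 1 FPKM, and their summed level was 0.05 to 0.32. Of the 4 Lrrn relatives, 3 were lower and 1 higher in SNI than in sham, where 45.7% of genes past the filter were called. Lrrn1 stood at 81.9 FPKM in sham, and edgeR called none of the 4 between SNI + G15 and SNI. Among 9 other intermediate filament genes, 5 were higher and 3 lower in SNI than in sham, where 45.7% of all genes were called. Gfap, the glial filament gene of satellite cells, rose by 2.52 and by a further 0.47, in steps like those of Krt7, and the neurofilament gene Nefl fell by 0.77. The mean profile of Krt7, Krt8 and Krt19 was most like that of the proteasome genes Psme1 and Psmb10, at r = 0.994 and 0.975 over the 9 libraries. That mean joins unlike genes, since Krt19 correlated with Krt7 at -0.074 and with Krt8 at -0.407. Once group means were subtracted, Bcl2l1 and Cib2 stood nearest, at 0.98 and 0.968, and neither proteasome gene was among the 8 nearest.

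Depth did not separate the groups, with 18484557 to 18756736 estimated reads per library. Replicates of every group differed by more than sampling noise, with a mean chi-square per gene of 2.56 to 8.50, and SNI + G15 replicate 3 stood furthest from its group, at 8.24 and 8.50. Without it, the SNI + G15 against SNI values were 2.56 for Upk1b, 0.53 for Krt7, -1.65 for Krt19 and -0.12 for Cdh1, all still past the threshold. The markers of neurons, satellite glia and Schwann cells, the cells that define the labelled tissue, summed to 7500 to 8964, 4069 to 5276 and 2786 to 5207 FPKM. Of the 6 Schwann cell genes, 5 were lower in SNI than in sham (22.4% of all genes were) and 4 higher with G15 than without it (7.98%). Of the 7 macrophage genes, 6 were higher in SNI than in sham, 2 with G15 than without it and 7 in SNI + G15 than in sham, where 45.7%, 15.2% and 43.2% of all genes were called in either direction.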

How the data were processed

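The members and gene lists were chosen with earlier results of these data known. The authors deposited FPKM values per gene, each the sum over its transcripts, and an estimated count per gene and transcript, which need not be whole. Neither the aligner nor the annotation is given in the sources used here. The submitters' processing notes name the mouse builds GRCm38 and mm10, although the gene identifiers are of rat, and the labels' extraction text names another cell type than DRG. Columns named for a control hold sham by elimination, since the rest are named for SNI or G15. The deposited TPM columns, 18 in total over genes and transcripts, and the authors' comparison tables, which hold fold changes and p-values, were not used.

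After rounding, the estimated counts of the 2 groups compared entered edgeR 4.0.16 (R 4.3.3) with TMM factors and its quasi-likelihood test, over 14305 genes that reached 1 FPKM in some library, with Benjamini-Hochberg adjustment. Upk1b, Upk3b, Wt1, Lrrn4 and Krt18, below that filter, came from the same fit over 20091 genes with at least 1 count, as did the counts over all 10 markers. Alternatives used DESeq2 1.42.0, limma 3.58.1, other scalings and filters, a block for replicate number, and fits lacking 1 library. Scripts were tested on simulated data. Replicate numbers were not treated as pairs in the main fit. None of 9 correlations of same-numbered deviations was above 0.1, which cannot exclude a pairing. All 10 markers are named, with up to 4 called genes of each list by smallest adjusted p, and the genes most correlated with the markers. Other genes were named after their values were seen. A gene picked by this rule is not reported here. Intervals are exact, at 95%, and cover counting error only. Promoters are RefSeq sequences of GRCr8, present for 6 of the 10 markers.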

Additional observations from a re-analysis of the deposited data

How the results depend on the processing

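The numbers of markers called were within 1.5 times of those given under every alternative run. Among all genes, 2179 were called between SNI + G15 and SNI, 1292 with the replicate block, and 893 to 2333 when 1 replicate was left out, fewest without SNI replicate 3, with 925 without SNI replicate 2 and 1098 without SNI replicate 1. Leaving out an SNI + G15 library gave 1583 to 2333. The block on replicate numbers, which were not treated as pairs in the main fit, ended 1 call of a marker, that of Cdh1 between SNI + G15 and SNI (adjusted p = 0.15). That call was also lost with DESeq2 (0.0577), both limma fits (0.0569 and 0.0582), no filter (0.0631), filterByExpr (0.0516) and 5 of 6 libraries left out (0.0552 to 0.172). Between SNI and sham, Cdh1 was lost with limma (0.0556 and 0.0553) and without SNI replicate 1 (0.0513). Signs changed only where no call was made. Krt8 between SNI and sham was 0.012 with library size alone, 0.0164 and 0.0203 with limma, and from -0.128 to 0.095 with a replicate left out. Lrrn4 was -0.00439 with all 9 libraries in 1 fit and -0.206 to 0.274 with a replicate left out in that comparison. In the contrast of SNI + G15 with SNI it was -0.00016 and -0.00512 with limma and -0.301 to 0.235 with a replicate left out, and against sham -0.30 to 0.265. Krt18 between SNI and sham was -0.874 without SNI replicate 2. The cause of these changes was not tested. Depth limits Upk3b, Wt1, Lrrn4 and Krt18, with at most 13.2 estimated reads in any library.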
